A study of Mus musculus with 18 samples.

Results

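The receptors for fibroblast growth factors (FGF) and for epidermal growth factor (EGF) and its relatives were followed in embryonic mouse spinal cord. They are Fgfr1, Fgfr2, Fgfr3 and Fgfr4, the related Fgfrl1, and Egfr, Erbb2, Erbb3 and Erbb4. The members were chosen by gene symbol from the authors' deposited coexpression table, in which these are 9 of 23890 genes. All 9 had a value on every array, and no filter on low values was applied to them. These members and the gene lists below were chosen with earlier results of these data known. Counts set beside the share over all genes are therefore descriptive. The study profiled, on 18 microarrays, spinal cord cells of embryos that carry the Aldh1l1-GFP transgene on a Swiss-Webster background. Cells sorted for GFP filled 3 arrays from embryonic day E13.5, 2 from E14.5 and 3 from a late age, of which 2 were E17.5 and 1 was E18.5. All live cells, sorted from cords that carry the same transgene, filled 3 arrays for each age, the late ones again 2 of E17.5 and 1 of E18.5. The remaining array, which its title calls mislabeled, entered no comparison. No group was treated with an agent, according to the labels.

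GFP in this transgene follows the regulatory region of Aldh1l1, a folate enzyme of astrocytes and their radial glial precursors, so a GFP cell is one that uses that region and not a purified cell type. All live cells still contain the GFP cells, so a difference between the sorts is smaller than one against GFP-negative cells would be. Arrays of a group are labelled as biological replicates, but no litter or animal is named, and p-values therefore reflect only how far these samples spread. In such bulk samples, fewer cells of a type and less RNA per cell cannot be told apart.

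FGF receptors are tyrosine kinases that bind FGF together with heparan sulfate at the cell surface, recruit the adaptor FRS2 and drive the RAS-MAPK cascade, whose transcriptional targets include the ETV factors and the feedback inhibitors of the Sprouty, Spred and dual-specificity phosphatase families. The EGF receptor family works as pairs: EGFR and ERBB4 bind ligand and have active kinases, ERBB2 has no known ligand, and ERBB3 binds neuregulins but has little kinase activity of its own. In the developing spinal cord Fgfr3 is a known marker of ventricular zone progenitors and astrocyte precursors, Egfr is known from glial progenitors and astrocytes, and Erbb3 from Schwann cells and oligodendrocyte lineage cells.

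Markers were read first, to check the sorts. Of 14 astrocyte and radial glia markers, 10 were called higher in GFP cells than in all live cells in the E13.5 samples and 11 in both later sets. The shares of all genes called higher were 11.1% at E13.5, 10.3% at E14.5 and 4.61% late. Aldh1l1 itself was higher by a log2 of 2.19 ± 0.12 (SE) at E13.5, 1.80 ± 0.14 at E14.5 and 0.96 ± 0.12 late. Of 12 neuron markers, 12 were called lower in the E13.5 samples, 12 in the E14.5 samples and 11 late. Array medians lay between 7.73 and 7.82 log2, and arrays of the same group correlated at 0.985 to 0.994 over all genes. Values below are the authors' log2 expression values. Differences are in log2 with the standard error (SE) of limma, fitted to all 17 arrays, and a difference was called when its adjusted p over 23787 genes was under 0.05.

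At E13.5 the receptors were mostly higher in GFP cells. Of the 9 receptors, 6 were called higher, namely Fgfr1, Fgfr2, Fgfr3, Egfr, Erbb2 and Erbb4, where 11.1% of all genes were called higher and 8% lower. The median difference of the 9 receptors was 0.32, against -0.04 over all genes. At E14.5 these 6 and Erbb3 were called higher, 7 of 9, where 10.3% of all genes were called higher and 8.22% lower, and the median was 0.66 against -0.03. Late, 5 of 9 were called higher, namely Fgfr1, Fgfr2, Fgfr3, Egfr and Erbb4, where 4.61% of all genes were called higher and 4.68% lower, and the median was 0.32 against 0.04.

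**Figure D1:**
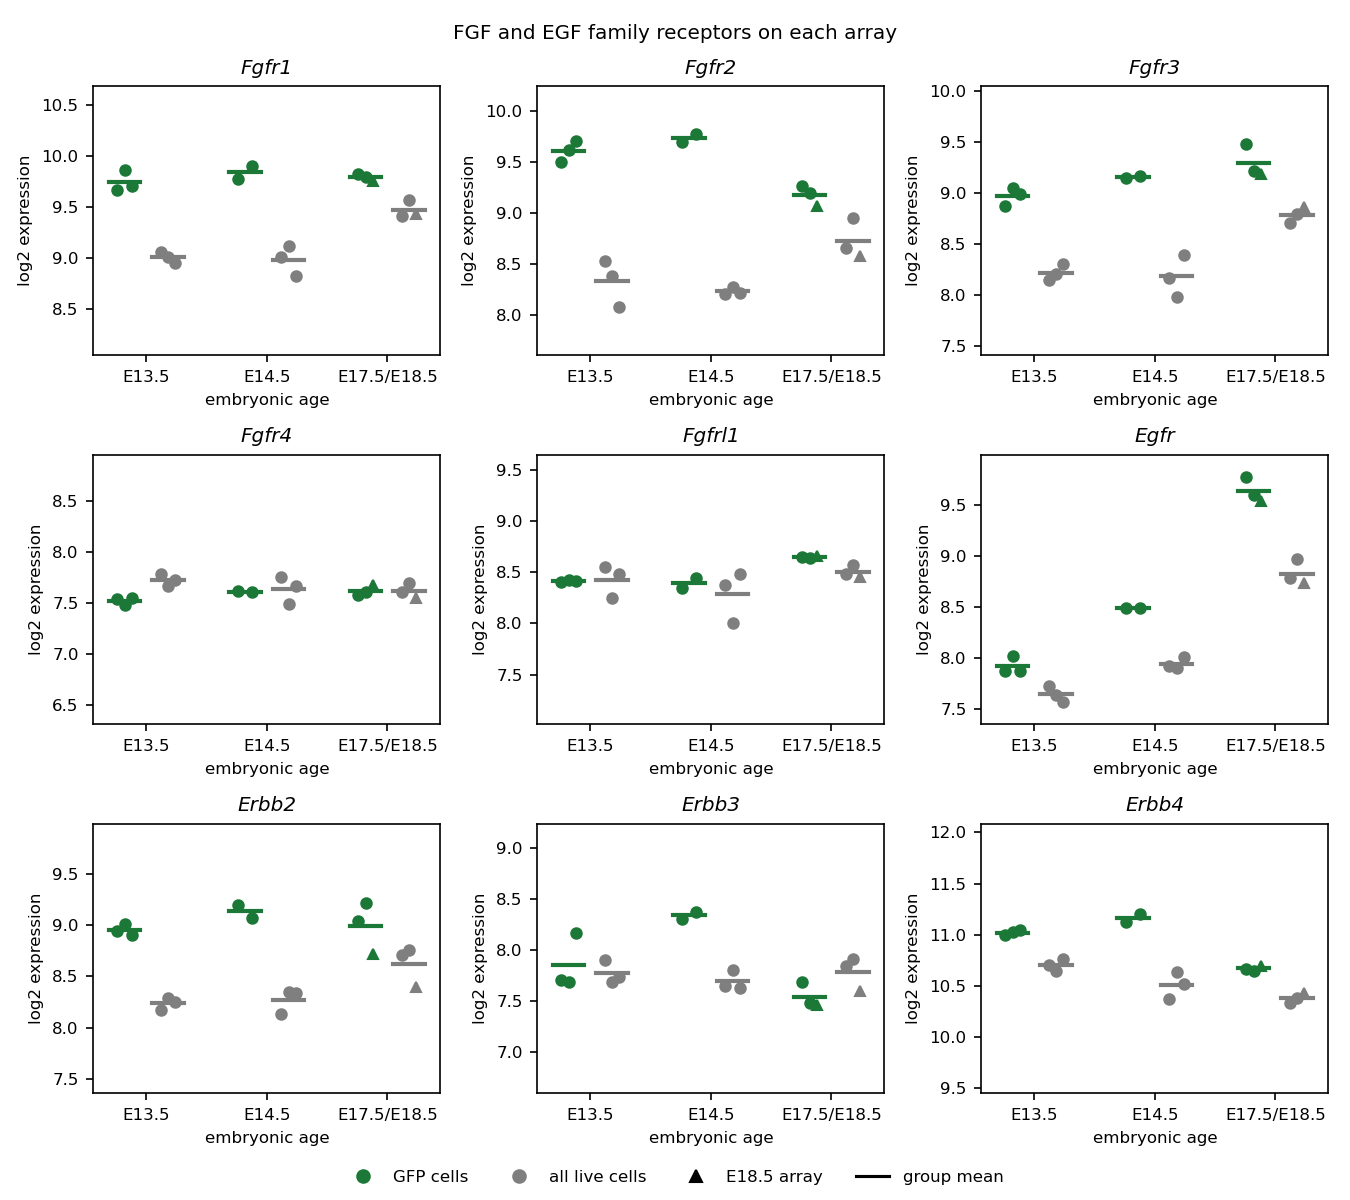
Log2 expression of the 9 receptors on each of the 17 arrays (points, with triangles for the E18.5 arrays), by embryonic age (x axis) and sort, with GFP cells drawn left of all live cells and a bar at each group mean. Egfr reached 9.54 to 9.77 in GFP cells at the late age, above every other group, and Fgfr2 in GFP cells was lower at the late age than at E13.5 and E14.5.

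Fgfr2, whose splice forms bind different sets of FGFs, gave the widest gap between the sorts among the 9 receptors on both earlier days. At E13.5 it measured 9.50, 9.62 and 9.70 in GFP cells, against 8.53, 8.39 and 8.08 in all live cells. Every GFP array was above every array of all live cells, and the gap was 1.27 ± 0.11, a 2.41-fold difference (limma adjusted p = 4.20e-07). At E14.5 Fgfr2 stood at 9.70 and 9.77 in GFP cells and at 8.21, 8.27 and 8.22 in all live cells, a gap of 1.50 ± 0.13 or 2.83-fold (limma adjusted p = 2.40e-07). At the late age the groups still did not overlap, with 9.27, 9.20 and 9.07 in GFP cells and 8.66, 8.95 and 8.58 in all live cells, but the gap was 0.45 ± 0.11, or 1.37-fold (limma adjusted p = 0.0160). That late call ended under 6 of 13 alternatives, among them the fit without the E18.5 arrays and the fit without all live cells replicate 1 or 3 or without GFP replicate 1 or 2, with adjusted p from 0.00455 to 0.0802.

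Fgfr1, the receptor with the broadest expression in neural tissue, lay between 9.67 and 9.91 on all 8 GFP arrays. It measured 9.67, 9.86 and 9.71 in GFP cells at E13.5, against 9.06, 9.01 and 8.96 in all live cells, a gap of 0.74 ± 0.08 (limma adjusted p = 7.09e-06). At E14.5 it measured 9.78 and 9.91 in GFP cells, against 9.01, 9.12 and 8.83 in all live cells, a gap of 0.86 ± 0.09 (limma adjusted p = 4.30e-06). No array of all live cells reached a GFP array at either age. Late, Fgfr1 was at 9.82, 9.80 and 9.76 in GFP cells and at 9.42, 9.57 and 9.43 in all live cells. The sorts were still apart. The late gap was 0.32 ± 0.08 (limma adjusted p = 0.0239), and its call ended under 7 of 13 alternatives, with adjusted p from 0.0154 to 0.0966, among them the fits without GFP replicate 1 or 2 and without all live cells replicate 1 or 3.

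Fgfr3 separated the sorts at each age. It was at 8.87, 9.05 and 8.99 in GFP cells and at 8.15, 8.21 and 8.31 in all live cells at E13.5, with a gap of 0.75 ± 0.10 (limma adjusted p = 4.77e-05). It was at 9.14 and 9.17 in GFP cells and at 8.17, 7.99 and 8.40 in all live cells at E14.5, with a gap of 0.97 ± 0.11 (limma adjusted p = 8.98e-06). Late arrays read 9.48, 9.21 and 9.19 in GFP cells and 8.71, 8.79 and 8.86 in all live cells, with a gap of 0.51 ± 0.10 (limma adjusted p = 0.00398). The sorts did not overlap at any age, and all 3 calls held under every alternative tried.

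Fgfr4 and Fgfrl1 passed the test between the sorts at none of the 3 ages. Fgfr4, which in the embryo is best known from muscle and liver, averaged 7.63 over the 17 arrays, below the median of all probe sets (7.73), and no detection call was used, so its level cannot be told from background here. The same holds for group means of other receptors under 7.73, namely Egfr in E13.5 all live cells and Erbb3 in E14.5 all live cells and late GFP cells, and differences against such a group are not exact sizes. At E13.5 it was at 7.54, 7.49 and 7.55 in GFP cells, against 7.78, 7.67 and 7.73 in all live cells, which did not overlap, but the difference of -0.20 ± 0.08 was not called (limma adjusted p = 0.0759). Fgfrl1, which binds FGF and lacks the kinase domain, lay between 8.35 and 8.66 on the GFP arrays and at or below 8.57 on those of all live cells. Its late difference was 0.15, with a 95% interval from -0.07 to 0.37.

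Egfr, the receptor for EGF, TGF-alpha and HB-EGF, was called higher in GFP cells at each age, with its largest gap late. At E13.5 it was at 7.88, 8.03 and 7.88 in GFP cells and at 7.73, 7.64 and 7.58 in all live cells, a gap of 0.28 ± 0.08 (limma adjusted p = 0.0290), with the mean of all live cells (7.65) at a level not told from background. The sorts did not overlap, yet this call ended under 4 of 12 alternatives, with adjusted p from 0.00813 to 0.130: without GFP replicate 2, without all live cells replicate 2 or 3, and with a replicate block. At E14.5 Egfr was at 8.49 and 8.50 in GFP cells, against 7.92, 7.91 and 8.02 in all live cells, a gap of 0.55 ± 0.09 (limma adjusted p = 0.000429). Its late values were 9.77, 9.60 and 9.54 in GFP cells, against 8.79, 8.97 and 8.73 in all live cells, a gap of 0.81 ± 0.08 or 1.75-fold (limma adjusted p = 8.22e-06). At these 2 ages the sorts were apart and the calls held under every alternative tried.

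Erbb2, the partner receptor of the family, was higher in GFP cells at the 2 earlier ages. It was at 8.94, 9.01 and 8.90 in GFP cells and at 8.18, 8.29 and 8.25 in all live cells at E13.5, a gap of 0.71 ± 0.12 (limma adjusted p = 0.000277), and at 9.20 and 9.08 in GFP cells against 8.13, 8.35 and 8.34 in all live cells at E14.5, a gap of 0.86 ± 0.13 (limma adjusted p = 0.000112). Its late values were 9.04, 9.22 and 8.72 in GFP cells and 8.71, 8.76 and 8.40 in all live cells. The lowest array in each sort was the E18.5 one, the sorts overlapped, and the difference of 0.37 ± 0.12 was not called (limma adjusted p = 0.0567). It was called under 6 of 13 alternatives, with adjusted p from 0.00702 to 0.255, among them the fits without the E18.5 arrays, without GFP replicate 3 (0.00702) and without all live cells replicate 2.

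Erbb4, a neuregulin receptor, was above the array medians in every group and higher in GFP cells at each age. It was at 11.00, 11.02 and 11.04 in GFP cells and at 10.70, 10.65 and 10.76 in all live cells at E13.5, a gap of 0.32 ± 0.07 (limma adjusted p = 0.00534). It was at 11.12 and 11.20 in GFP cells and at 10.37, 10.64 and 10.52 in all live cells at E14.5, a gap of 0.66 ± 0.08 (limma adjusted p = 1.77e-05). The late arrays were at 10.66, 10.65 and 10.70 in GFP cells and at 10.33, 10.38 and 10.43 in all live cells, a gap of 0.29 ± 0.07 (limma adjusted p = 0.0186). The sorts did not overlap at any age. The E13.5 call ended under quantile normalization (0.0745, range over its alternatives 0.00261 to 0.0745), and the late call ended under 5 of 13 alternatives, with adjusted p from 0.0116 to 0.179, including the fit without all live cells replicate 1.

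Erbb3 was called between the sorts at E14.5 and at neither other age, and whether its E14.5 gap differed from the others was not tested. At E14.5 its GFP arrays were at 8.31 and 8.38, against 7.65, 7.80 and 7.63 in all live cells, a gap of 0.65 ± 0.14 (limma adjusted p = 0.00214), with the mean of all live cells (7.69) not told from background. At E13.5 GFP cells were at 7.71, 7.69 and 8.17 and all live cells at 7.91, 7.69 and 7.73. Late GFP cells were at 7.69, 7.48 and 7.46 and late all live cells at 7.85, 7.91 and 7.60. The E14.5 GFP arrays thus stood above all others, and the third E13.5 GFP array stood apart from the other 2 of its group. Beside this, the 10 oligodendrocyte lineage markers averaged 7.94 to 7.98 on the E14.5 GFP arrays, against 7.93 to 7.96 on those of E13.5. The 11 Schwann cell and ganglion markers, which partly overlap with that list, averaged 7.54 to 7.56 at E14.5 and 7.49 to 7.52 at E13.5. The means of this second list lie below the median of all probe sets (7.73). The part of either kind of cell in the Erbb3 values was not tested.

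Counted by arrays that do not overlap, 7 of 9 receptors separated the sorts at E13.5, with Fgfr4 alone lower in GFP cells, where 40% of all genes separated. On E14.5 arrays 7 of 9 separated, where 45.9% of all genes did, and on late arrays 6 of 9, where 21.5% did. The late count includes Fgfrl1, at 8.65, 8.64 and 8.66 in GFP cells and at 8.48, 8.57 and 8.45 in all live cells.

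**Figure D2:**
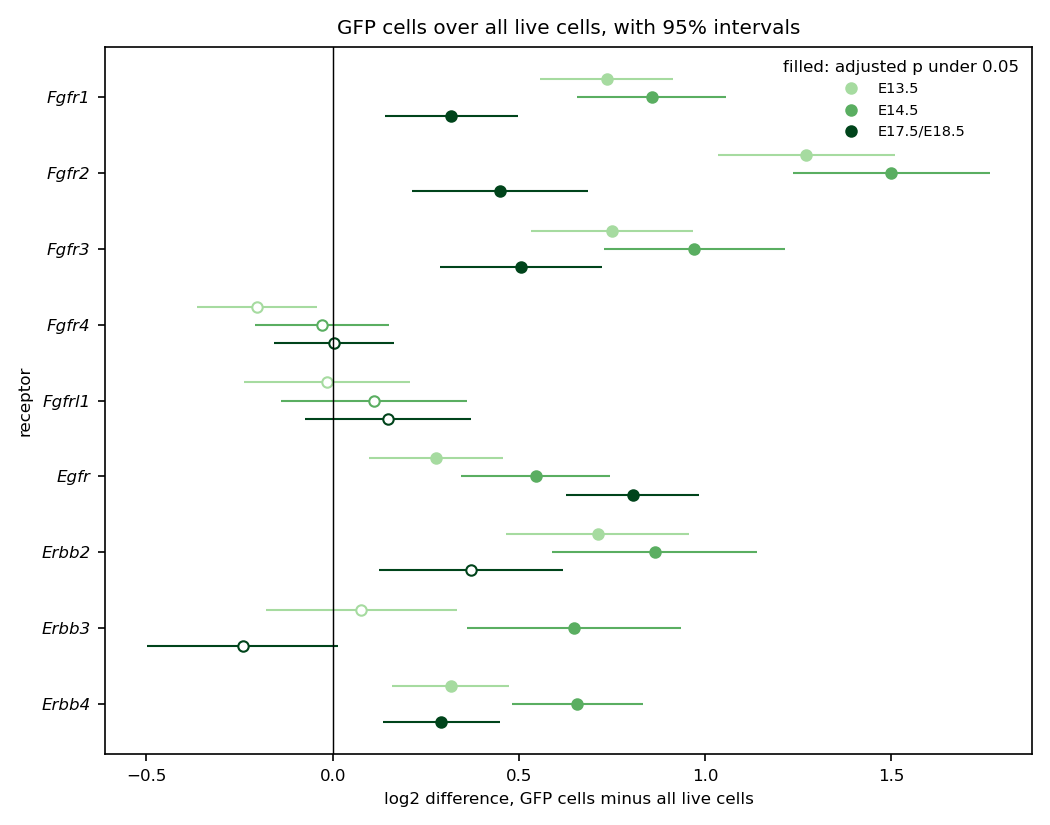
Difference between GFP cells and all live cells (x axis, log2, with 95% interval) for each receptor (y axis) at E13.5, E14.5 and the late age, with filled points for called differences. The late Fgfr2 gap of 0.45 lies left of its E13.5 gap of 1.27, and the late Egfr gap of 0.81 lies right of its E13.5 gap of 0.28.

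The gap itself changed between E13.5 and the late age for 2 of 9 receptors in a test of the difference between the 2 gaps, where 1.62% of all genes were called upward and 3% downward. The Fgfr2 gap was smaller at the late age by 0.82 ± 0.16 (limma adjusted p = 0.00530), a call that held under every alternative. The Egfr gap was larger by 0.53 ± 0.12 (limma adjusted p = 0.0162), a size that is not exact because the E13.5 gap rests on all live cells at a mean of 7.65, not told from background. Its call ended with a replicate block (adjusted p = 0.0502), the highest of a range that began at 0.00846. The Fgfr1 gap change of -0.42 ± 0.12 was not called (limma adjusted p = 0.0571), and for the other receptors the 95% intervals included 0. The median gap change was -0.24 for the receptors and 0.06 over all genes. Of the 14 astrocyte and radial glia markers, 7 had a gap change called downward and 3 upward, with a median of -0.52.

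Within GFP cells, Egfr rose at each step, and Fgfr2, Erbb3 and Erbb4 fell after E14.5. These comparisons use the same GFP arrays as those between the sorts. At E14.5 relative to E13.5, Egfr was called higher by 0.57 ± 0.09 (limma adjusted p = 0.00515), 1 of 9 receptors, where 0.912% of all genes were called higher and 0.589% lower. That call ended without either E14.5 GFP array, with adjusted p from 0.00259 to 0.0681 over its alternatives. Erbb3 was 0.49 ± 0.14 higher at E14.5 and was not called (limma adjusted p = 0.0955). It was called without GFP replicate 3 of E13.5 (0.0158), the lowest of a range that ended at 0.414.

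At the late age relative to E14.5, Egfr rose in GFP cells by 1.14 ± 0.09 (limma adjusted p = 1.30e-06), 1 receptor called higher where 2.98% of all genes were. Fgfr2 was lower by 0.55 ± 0.13 (limma adjusted p = 0.0125), Erbb3 by 0.80 ± 0.14 (limma adjusted p = 0.00138) and Erbb4 by 0.50 ± 0.08 (limma adjusted p = 0.00124), 3 receptors called lower where 3.31% of all genes were. The late Erbb3 mean of 7.54 cannot be told from background, so the size of its fall is not exact. All late GFP arrays lay below both E14.5 GFP arrays for these 3 receptors and above both for Egfr, Fgfr3 and Fgfrl1, 6 of 9 receptors apart, where 36.8% of all genes were. The Fgfr2 call ended without either E14.5 GFP array, with adjusted p from 0.00555 to 0.124 over its alternatives.

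Over the whole interval in GFP cells, late relative to E13.5, Egfr rose by 1.71 ± 0.08, a 3.27-fold difference (limma adjusted p = 6.77e-10). Fgfr3 was called higher by 0.32 ± 0.10 (limma adjusted p = 0.0414), so that 2 receptors were called higher where 7.34% of all genes were. Fgfr2 was called lower by 0.43 ± 0.11 (limma adjusted p = 0.0145) and Erbb4 by 0.35 ± 0.07 (limma adjusted p = 0.00322), 2 receptors where 8.98% of all genes were called lower. The calls of Egfr and Erbb4 held under every alternative. That of Fgfr3 ended under 6 of 13, with adjusted p from 0.0155 to 0.168, among them the fits without any 1 of the 3 E13.5 GFP arrays and without late GFP replicate 1. That of Fgfr2 ended under 4 of 13, with adjusted p from 0.00497 to 0.0650, among them the fits without the E18.5 arrays, without E13.5 GFP replicate 3 and without late GFP replicate 3.

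The sequences upstream of the receptors that changed with age in GFP cells are shown so that their base composition and short motifs can be compared. Each is the 250 bases before the annotated start, read 5′ to 3′ on the gene's strand, from RefSeq on build GRCm38.p6. Of the 9 receptors, 7 had an entry in that table. Fgfr1 and Erbb3 had none, so Erbb3, called lower after E14.5, is not shown. The first of the 2 Fgfr3 starts is shown. Capitals mark matches, on either strand, to TTGGC (the core of nuclear factor I sites, also read as GCCAA) or to TGACNNNGC (the core of CNC-bZIP sites). The SOX motifs ACAATG and ACAAAG were searched too.
Fgfr2, lower late, chr7:130266809-130267058, minus strand: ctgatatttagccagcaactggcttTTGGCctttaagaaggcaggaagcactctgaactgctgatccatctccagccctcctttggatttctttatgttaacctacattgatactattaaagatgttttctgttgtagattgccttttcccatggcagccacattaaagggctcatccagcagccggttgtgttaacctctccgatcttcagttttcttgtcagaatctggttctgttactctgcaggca
Erbb4, lower late, chr1:69108060-69108309, minus strand: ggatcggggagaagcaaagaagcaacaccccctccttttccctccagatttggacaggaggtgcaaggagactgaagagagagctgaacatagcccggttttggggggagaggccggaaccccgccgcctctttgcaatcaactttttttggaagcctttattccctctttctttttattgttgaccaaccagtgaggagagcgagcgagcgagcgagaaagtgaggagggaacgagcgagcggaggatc
Egfr, higher late, chr11:16751953-16752202, plus strand: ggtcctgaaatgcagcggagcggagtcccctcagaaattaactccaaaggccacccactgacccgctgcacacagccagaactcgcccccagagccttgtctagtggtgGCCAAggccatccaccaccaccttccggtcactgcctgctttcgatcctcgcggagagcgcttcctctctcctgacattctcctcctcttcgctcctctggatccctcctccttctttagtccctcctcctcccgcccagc
Fgfr3, higher late, chr5:33721474-33721723, plus strand: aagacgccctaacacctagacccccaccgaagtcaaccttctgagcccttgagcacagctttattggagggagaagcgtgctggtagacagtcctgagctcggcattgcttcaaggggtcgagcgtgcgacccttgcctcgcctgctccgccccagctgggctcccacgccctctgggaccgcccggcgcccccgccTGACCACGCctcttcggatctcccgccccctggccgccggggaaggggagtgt

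The Fgfr2 window was the poorest of these in guanine and cytosine, with 44.0% and 2 CpG, against a median of 52.4% and 6 CpG over 32851 promoters of the table. The Egfr window held 60.8% and 11 CpG, the Erbb4 window 54.0% and 12 CpG, and the first Fgfr3 window 66.8% and 19 CpG. TTGGC occurred once in the Fgfr2 window and, as GCCAA, once in the Egfr window, and 41.5% of all promoters hold it. TGACNNNGC occurred once in the first Fgfr3 window, as TGACCACGC, and 10.2% of all promoters hold it. The window of the second Fgfr3 start, not shown, held no TGACNNNGC, with 72.8% and 24 CpG. Neither SOX motif occurred in the 4 windows shown, and 10.7% of all promoters hold ACAATG and 16.5% hold ACAAAG. These matches are letters in a window and not binding sites, and no binding was measured.

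In all live cells, late relative to E13.5, 5 receptors were called higher where 10.2% of all genes were, and 1 was called lower where 9.99% were. Egfr was higher by 1.18 ± 0.08 (limma adjusted p = 2.75e-08, against an E13.5 level not told from background), Fgfr3 by 0.57 ± 0.10 (limma adjusted p = 0.000611) and Fgfr1 by 0.46 ± 0.08 (limma adjusted p = 0.000617). Fgfr2 was higher by 0.40 ± 0.11 (limma adjusted p = 0.0172), the opposite direction to its change in GFP cells, and Erbb2 by 0.38 ± 0.12 (limma adjusted p = 0.0260). The Fgfr2 call ended under 3 of 13 alternatives, among them the fits without replicate 3 of E13.5 or replicate 2 of the late age, with adjusted p from 0.00704 to 0.111, and the Erbb2 call under 4 of 13, all of them fits without 1 array (E13.5 replicate 1 or 3, late replicate 1 or 2), with adjusted p from 0.000933 to 0.108. Erbb4 was lower by 0.33 ± 0.07 (limma adjusted p = 0.00400), as in GFP cells. The median was 0.38 over the receptors and -0.03 over all genes.

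Markers of several cell types moved in all live cells over the same interval. The mean of the 14 astrocyte and radial glia markers was 10.50 to 10.66 at the late age, against 9.42 to 9.46 at E13.5. The mean of the 10 oligodendrocyte lineage markers was 9.10 to 9.46, against 8.02 to 8.08, that of the 12 microglia and macrophage markers was 9.42 to 10.24, against 8.33 to 8.43, and that of the 12 neuron markers was 9.74 to 9.90, against 11.03 to 11.12. The 10 endothelial markers averaged 8.05 to 8.16 late, against 7.27 to 7.28, the 12 mural and meningeal markers 8.55 to 8.77, against 8.39 to 8.44, and the 7 erythroid markers at most 9.45, against 10.40 to 10.62. The 11 Schwann cell and ganglion markers averaged 7.79 to 8.02 late, against 7.92 to 8.03. Some of these means join members that moved differently. Of the mural and meningeal markers 5 were called higher and 4 lower, and of the Schwann cell and ganglion markers 3 and 3. Of the erythroid markers 2 were called lower and 5 were not called. Over all genes 10.2% were called higher and 9.99% lower. The part of all these markers in the receptor changes was not tested. In GFP cells the astrocyte and radial glia mean was 11.18 to 11.30 late, against 10.48 to 10.51 at E13.5, beside the rises of Egfr and Fgfr3. Of these 14 markers, 7 were called higher late in GFP cells, 1 lower and 6 not called, where 7.34% of all genes were called higher and 8.98% lower. The oligodendrocyte lineage mean in GFP cells was 8.02 to 8.19 late, against 7.93 to 7.96 at E13.5, and the neuron mean 8.28 to 8.49, against 9.64 to 9.74, beside the falls of Fgfr2 and Erbb4. The part of these markers in the changes in GFP cells was not tested.

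**Figure D3:**
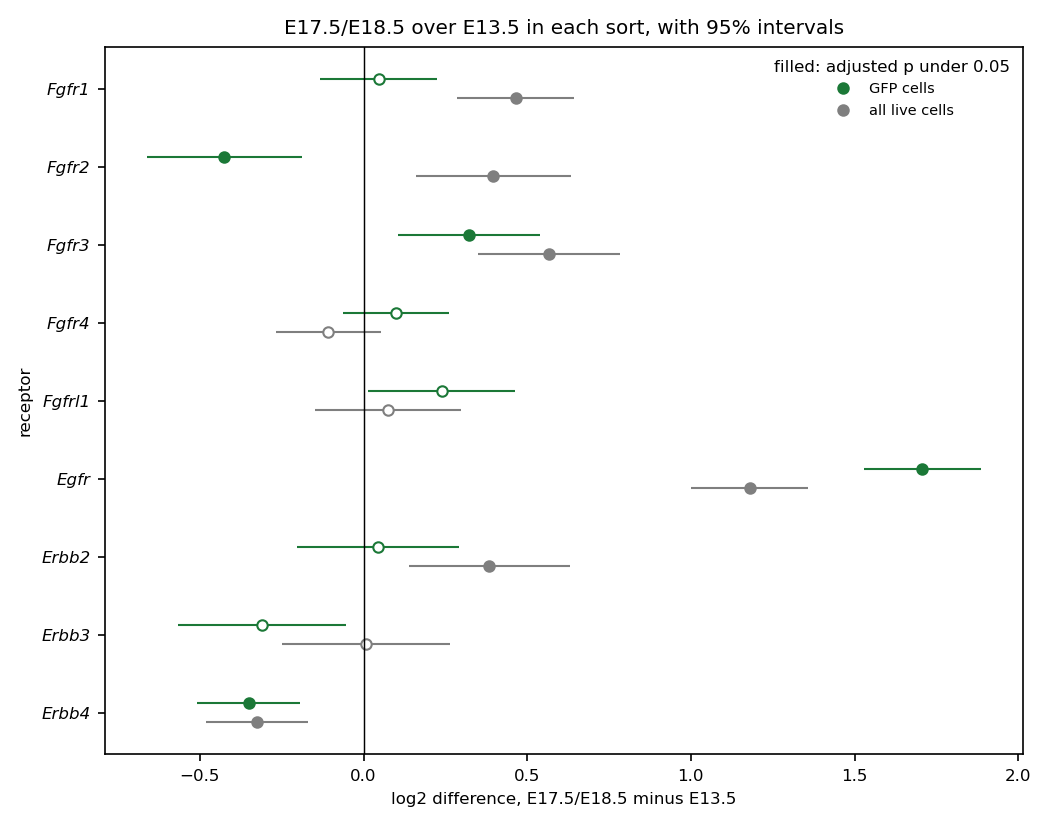
Difference between the late age and E13.5 (x axis, log2, with 95% interval) for each receptor (y axis), in GFP cells and in all live cells, with filled points for called differences. Fgfr2 lies at -0.43 in GFP cells and at 0.40 in all live cells, and Egfr lies right of 0 in both, at 1.71 and at 1.18.

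Ordered by mean level within each gene, all GFP groups came before all live cells for Fgfr1, Fgfr2, Fgfr3 and Erbb2. How many of all genes have this order was not counted. For Egfr the order was late GFP cells (9.64), late all live cells (8.83), E14.5 GFP cells (8.49), E14.5 all live cells (7.95), E13.5 GFP cells (7.93) and E13.5 all live cells (7.65), and among neighbours in this order only the arrays of E14.5 all live cells and E13.5 GFP cells overlapped. For Fgfr2 the order was GFP cells at E14.5 (9.73), E13.5 (9.61) and the late age (9.18), then all live cells at the late age (8.73), E13.5 (8.33) and E14.5 (8.23), and the first 2 overlapped, as did the last 2. For Fgfr3 the GFP cells came in the order late (9.29), E14.5 (9.15) and E13.5 (8.97), with no overlap between neighbours, and all live cells followed. For Fgfr1 all GFP groups (9.84 at E14.5, 9.79 late, 9.75 at E13.5) overlapped one another and came before all live cells, which were highest late (9.47).

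For Erbb2 the GFP groups again came first (9.14 at E14.5, 8.99 late, 8.95 at E13.5), followed by late all live cells (8.62). Late GFP cells overlapped both earlier GFP groups, which were apart from each other. For Erbb4 the E14.5 and E13.5 GFP cells led (11.16 and 11.02), and late GFP cells (10.67) overlapped E13.5 all live cells (10.70), which came before them. For Erbb3 the E14.5 GFP cells (8.34) stood apart from E13.5 GFP cells (7.85), and all later neighbours overlapped down to late GFP cells (7.54). For Fgfrl1 late GFP cells (8.65) stood apart and all later neighbours overlapped. For Fgfr4 neighbours overlapped except E14.5 and E13.5 GFP cells, the lowest 2 groups.

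The group means of 3 receptors spanned at least 1 log2, and genes with the most similar pattern were found by the root mean square difference of the 6 centred group means. Nearest to Fgfr2 (span 1.50) were Pax6, a progenitor transcription factor, at 0.059, AB010352 at 0.065 and Tiam2, a Rac exchange factor, at 0.078. Nearest to Fgfr3 (span 1.11) were Metrn, which encodes the secreted factor meteorin, at 0.035, the peroxisomal enzyme gene Hsd17b4 at 0.045 and the serine synthesis gene Psph at 0.054. Nearest to Egfr (span 1.98) were the sodium, calcium and potassium exchanger gene Slc24a3 at 0.108, the Rac exchange factor Prex2 at 0.120 and the glutamate transporter Slc1a2 at 0.125. The 6 means come from the same arrays, so these values describe this series only.

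Ligand genes of the FGF list were called in both directions between the sorts, and those of the ErbB list only lower in GFP cells. Of 22 FGF genes, 1 was called higher and 4 lower at E13.5 (11.1% and 8% of all genes), 2 and 4 at E14.5 (10.3% and 8.22% of all genes), and 2 and 1 late (4.61% and 4.68% of all genes). The late count of lower genes and the E14.5 count of higher genes are near the shares over all genes. The E13.5 count of higher genes is below its share. Fgf13, an intracellular FGF homologue of neurons that does not act through these receptors, was lower by 1.03 ± 0.14, 0.79 ± 0.15 and 0.72 ± 0.14 at the 3 ages. Fgf15, a progenitor FGF, was higher by 0.42 ± 0.10, 0.68 ± 0.12 and 0.41 ± 0.10, and Fgf2 was higher by 0.81 ± 0.18 on E14.5 arrays and 0.59 ± 0.16 on late ones. Of 11 ErbB ligands, 3 were called lower in GFP cells at E13.5, 2 at E14.5 and 1 late, against the same shares over all genes. Nrg3, a neuregulin that binds ERBB4, was lower by 1.33 ± 0.15, 1.45 ± 0.17 and 0.83 ± 0.15, and Nrg1 by 0.24 ± 0.08 on E13.5 arrays and 0.33 ± 0.09 on E14.5 arrays. Within GFP cells, late relative to E13.5, Fgf2 rose by 1.10 ± 0.16 and Hbegf, an EGFR ligand, by 0.62 ± 0.08, while Fgf15 fell by 0.49 ± 0.10.

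Of 18 co-receptors and heparan sulfate proteoglycans, 4 were called higher and 5 lower in GFP cells at E13.5 (11.1% and 8% of all genes), 5 and 4 at E14.5 (10.3% and 8.22%), and 2 and 3 late (4.61% and 4.68%). The proteoglycans Sdc2 and Gpc4 were higher by 1.44 ± 0.17 and 0.97 ± 0.10 at E13.5, and the adhesion genes L1cam and Flrt2 lower by 1.40 ± 0.14 and 0.96 ± 0.10. Within GFP cells, late relative to E13.5, 6 were called higher and 3 lower (7.34% and 8.98% of all genes). Ncam1 rose by 0.70 ± 0.08 and Gpc6 by 0.65 ± 0.10, and Flrt3 fell by 0.67 ± 0.14 and Gpc3 by 0.60 ± 0.14.

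FGF target and feedback genes were higher in GFP cells for most of the list at the 2 earlier ages. Of 14, 8 were called higher and 2 lower at E13.5 (11.1% and 8% of all genes), with a median of 0.42 against -0.04 over all genes. At E14.5 the counts were 9 and 2 (10.3% and 8.22% of all genes), with 0.62 against -0.03. Late, 3 were called higher and 1 lower (4.61% and 4.68% of all genes), with a median of 0.11 against 0.04. The ETV transcription factors Etv5 and Etv1 were higher by 2.08 ± 0.17 and 1.94 ± 0.18 at E13.5, followed by the inhibitors Il17rd (1.22 ± 0.14) and Spred1 (1.20 ± 0.10). The late called members were Etv4 (0.59 ± 0.14), Spred1 (0.49 ± 0.10), Il17rd (0.48 ± 0.14) and, lower, Spry3 (-0.63 ± 0.14).

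The gap between the sorts changed for 6 of these 14 genes from E13.5 to the late age, 5 downward and 1 upward, where 3% and 1.62% of all genes were. Of the 14 astrocyte and radial glia markers, 7 changed downward and 3 upward. The gap was smaller by 1.82 ± 0.25 for Etv1 (limma adjusted p = 0.000415) and by 1.62 ± 0.24 for Etv5 (limma adjusted p = 0.000639). In all live cells, late relative to E13.5, 11 of the 14 were called higher and 1 lower (10.2% and 9.99% of all genes), led by Etv5 at 2.26 ± 0.17, Il17rd at 1.47 ± 0.14 and Etv1 at 1.44 ± 0.18. In GFP cells over the same interval 8 were called higher and 1 lower (7.34% and 8.98% of all genes), with a median of 0.42 against 0.05 over all genes. Etv4 rose by 1.00 ± 0.14, the Sprouty gene Spry2 by 0.94 ± 0.19 and the phosphatase gene Dusp6 by 0.77 ± 0.13, while the cyclin gene Ccnd1 fell by 0.76 ± 0.11.

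**Figure D4:**
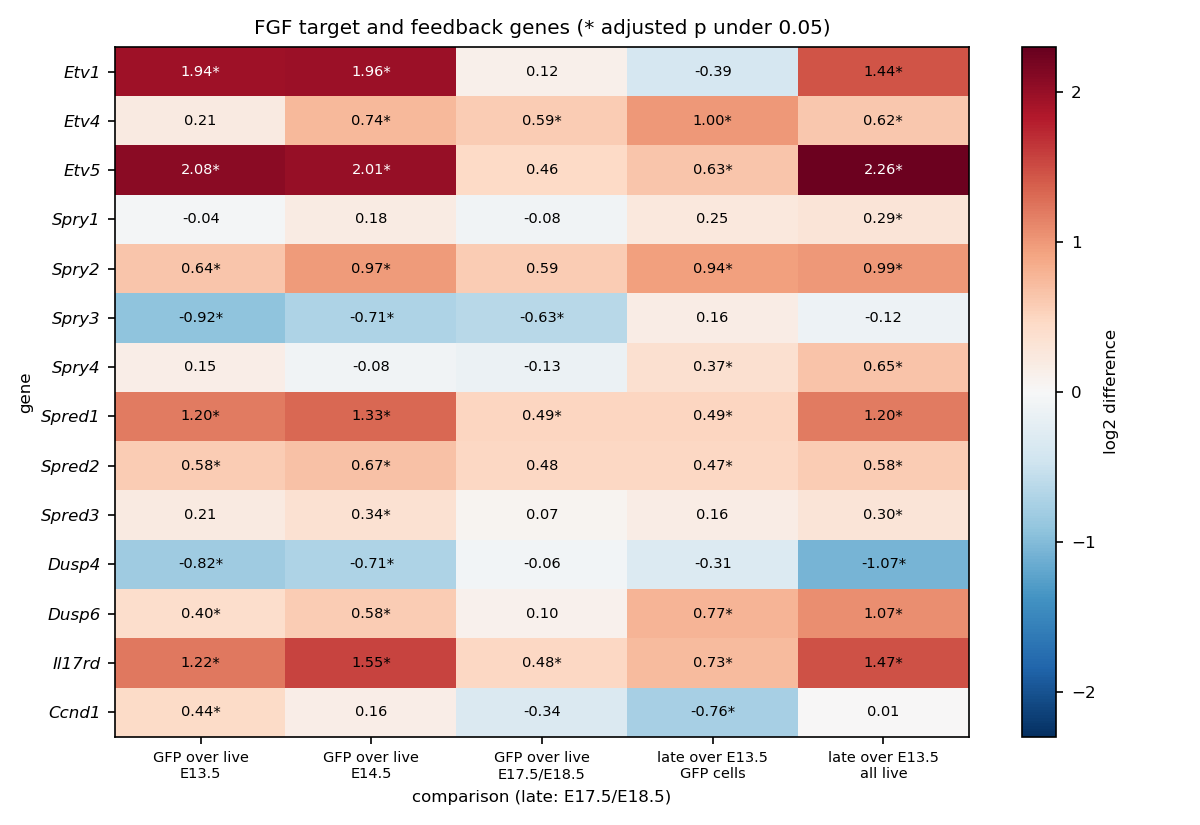
Difference in log2 (colour, with the value printed in each cell and called values marked) for the 14 FGF target and feedback genes (y axis) in the comparisons between sorts and ages (x axis). Etv5 and Etv1 have the largest GFP excess at E13.5, 2.08 and 1.94, and Etv5 the largest late rise in all live cells, 2.26.

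Regulators of the ErbB receptors were higher in GFP cells for 4 of 13 genes at E13.5, with 2 lower (11.1% and 8% of all genes), for 5 at E14.5 (10.3%) and for 1 late (4.61%). Lrig1, which promotes the degradation of ErbB receptors, was higher at the 3 ages by 1.35 ± 0.10, 1.58 ± 0.11 and 0.79 ± 0.10. Errfi1, an inhibitor of the EGFR kinase, was higher by 1.34 ± 0.15 and then 1.53 ± 0.17 on the earlier days, and the sheddase gene Adam17, whose product releases EGFR ligands, by 0.87 ± 0.11 and 1.03 ± 0.12. Within GFP cells, late relative to E13.5, Lrig1 rose by 0.57 ± 0.10 (limma adjusted p = 0.000765), while the ubiquitin ligase gene Cblb fell by 0.57 ± 0.10 and Adam10 by 0.42 ± 0.10. The gap between the sorts shrank for Errfi1 by 0.90 ± 0.21, for Adam17 by 0.63 ± 0.15 and for Lrig1 by 0.55 ± 0.14.

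Of 22 shared adaptors and RAS-MAPK genes, 4 were called higher and 1 lower in GFP cells at E13.5 (11.1% and 8% of all genes), and 6 were called higher at E14.5 (10.3%). The adaptors Shc3 and Gab1 were higher by 1.06 ± 0.13 and 0.73 ± 0.09 at E13.5, and by 1.30 ± 0.15 and 0.68 ± 0.10 at E14.5. Their gaps shrank to the late age by 0.94 ± 0.18 and 0.70 ± 0.12. Within GFP cells, late relative to E13.5, 2 of the 22 were called, Braf and Nras, lower by 0.39 ± 0.09 and 0.36 ± 0.10, a count near the 8.98% of all genes called lower.

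The authors' deposited coexpression table gives kME, which correlates each gene with a module's profile, and from it 2 assignments to modules. The stricter one placed 6 of the 9 receptors, and 5.48% of all genes of the authors' deposited table, in a module. These scores were computed from the same 17 arrays on the linear scale, so they are not independent of the values above. By the stricter assignment of the authors' deposited table Fgfr1 (0.96), Fgfr3 (0.97) and Erbb2 (0.92) belonged to the module named turquoise, which the authors call a middle astrocyte module and which holds 1.21% of the table. Fgfr2 (0.95) and Erbb4 (0.92) were assigned in the authors' deposited table to the module named red, called early, with 0.331% of it. Egfr (0.95) was assigned in the authors' deposited table to the module named yellow, called late, with 0.661%. Fgfr4, Fgfrl1 and Erbb3 were in no module by the stricter assignment of the authors' deposited table, like 94.5% of its genes. The looser assignment of the authors' deposited table placed 8 of the 9 receptors and 36.8% of all genes, with Fgfrl1 added to yellow and Erbb3 to red, and left out Fgfr4. In its list of initial modules the authors' deposited table has Fgfr2 in turquoise.

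**Figure D5:**
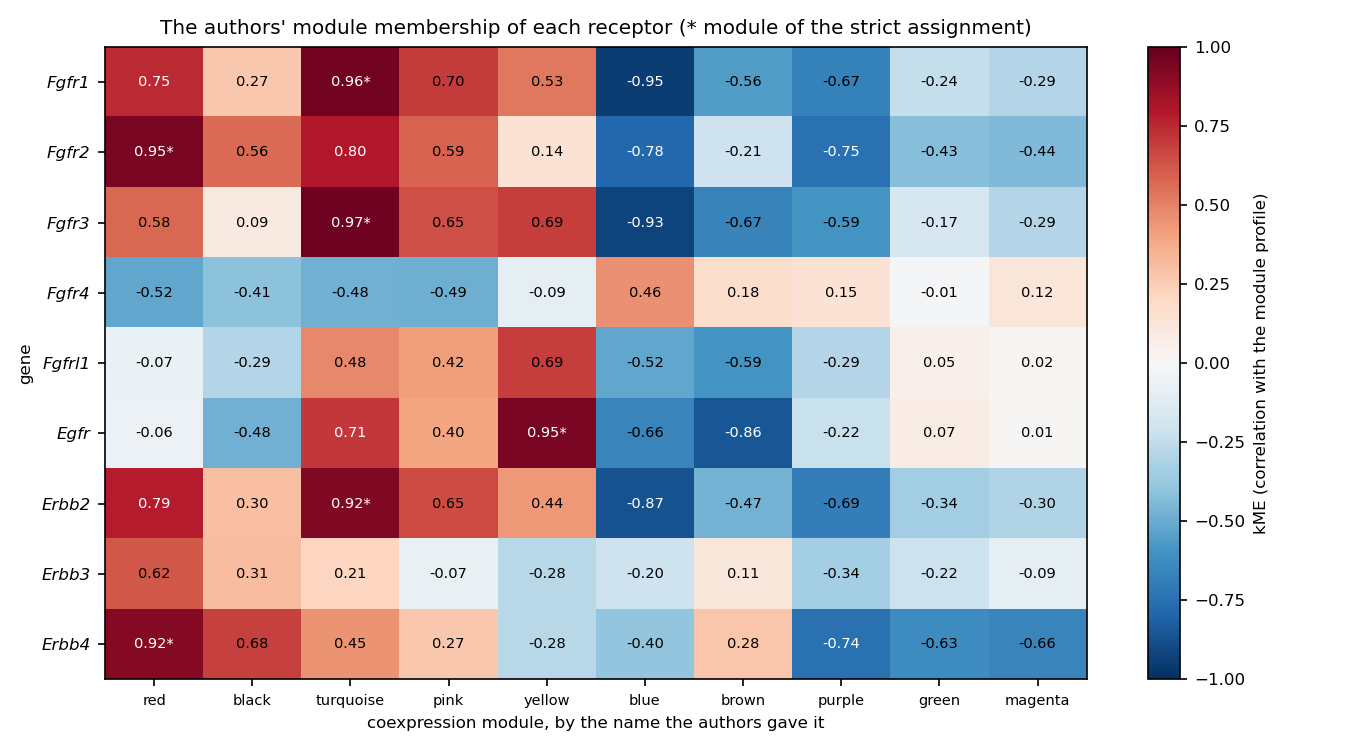
Module membership score kME (colour and printed value, with a star at the module of the stricter assignment) of each receptor (y axis) in each coexpression module of the authors' deposited table (x axis). Egfr scores 0.95 in the yellow module and -0.06 in the red, and Fgfr2 scores 0.95 in the red and 0.14 in the yellow.

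The authors' deposited comparison tables hold 1875 entries at E13.5, 552 at E14.5 and 683 late, with the authors' adjusted p up to 0.148, 0.150 and 0.150. The authors' deposited tables list 4 of the receptors at E13.5, with folds of GFP over all live cells of 1.67 for Fgfr1, 2.41 for Fgfr2, 1.68 for Fgfr3 and 1.64 for Erbb2, at adjusted p of 0.0114, 0.0141, 0.0459 and 0.0264. At E14.5 the authors' deposited table lists Fgfr2 at 1.87-fold with an adjusted p of 0.142, and at the late age Egfr at 1.75-fold with an adjusted p of 0.00563. The E14.5 fold equals the ratio over 3 GFP arrays including the one its title calls mislabeled, while the 2 labelled GFP arrays alone give 2.83-fold.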

How the data were processed

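RNA from sorted spinal cord cells was measured on 18 microarrays. Each probe set has a log2 value deposited by the authors. Per the submitters' processing notes oligo, RMA and limma were used and the build mm9 is listed, with no versions. The titles call the comparison cells all live, while a treatment text shared by all samples speaks of GFP-negative cells, and the titles were followed. In the deposited comparison tables each gene has a fold (a linear ratio) with a t score and adjusted p-values, and the deposited module table gives a kME score per gene with its p-value.

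Probe sets were named by matching values to those tables: 23890 of 23890 module table genes found a probe set to within 1e-08, 135 of them more than 1, and 23787 distinct genes were tested. Of 1959 probe sets named by both the comparison tables and the module table, 1930 had the same name in both. Another 6 columns of per-sample values, whose headings name E14.5 GFP cells (3 in each of 2 tables), were not used, because 2 arrays carry that label and the headings do not tell which columns they are. The 17 assigned arrays were fitted with limma 3.58.1 in R 4.3.3 (6 group means, 11 residual and 5.43 prior degrees of freedom), with Benjamini-Hochberg adjustment over all genes and a threshold of 0.05. The fit was tested on simulated data. For arrays, which have no read depth, precision is limited by how many there are.

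The members and gene lists were chosen with earlier results of these data known. All 9 receptors are named, with the 3 nearest genes for those spanning at least 1 log2 and, of each pathway list, up to 4 called members with the largest differences in a comparison. For marker lists, counts and mean levels are given, and Aldh1l1, whose regulatory region drives the transgene, is named beside this rule. Another gene that enters these means is not reported here by name. Where a gene had several probe sets, the one with the highest mean was used. Alternatives were quantile or median scaling, leaving out dim genes, fitting only the groups compared, averaging probe sets, a replicate block, and leaving out the E18.5 arrays or each array in turn.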

Additional observations from a re-analysis of the deposited data

Results flagged for a closer look

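The difference between GFP cells and all live cells changed with age for 2 receptors, by a limma test of the change itself. By the same test it changed downward for 7 and upward for 3 of the 14 astrocyte and radial glia markers. Over all genes, 3% were called downward and 1.62% upward. The Fgfr2 gap was 0.45 at the late age and 1.27 at E13.5, a change of -0.82 ± 0.16 (limma adjusted p = 0.00530). The late GFP arrays were at 9.07 to 9.27 and the late all live arrays at 8.58 to 8.95, so the sorts still did not overlap. The Egfr gap was 0.81 at the late age and 0.28 at E13.5, a change of 0.53 ± 0.12 (limma adjusted p = 0.0162), and the call ended with a replicate block (0.0502, range over its alternatives 0.00846 to 0.0502).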

How the results depend on the processing

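Of the receptor differences tested, 35 were called, and 23 of these stayed called under every alternative and the sign of all 35 held. Of the 37 not called, 4 were called under some alternative and 13 changed sign under some. The number of receptors called between the sorts at the late age, 5 as reported, was 3 with quantile normalization, 2 with only the groups compared in the fit and 3 without the E18.5 arrays. With single arrays left out it was 2 to 6, against 5 to 6 at E13.5 and 7 to 7 at E14.5; in GFP cells it was 0 to 2 for E14.5 over E13.5, 3 to 4 for late over E14.5 and 2 to 4 for late over E13.5, and in all live cells 4 to 6. Genes called between the sorts at the late age numbered 2209, against 1026 with only those groups in the fit, and for late over E14.5 in GFP cells 1497 against 546; leaving out single arrays gave 2934 to 4182 against 4405 between the sorts at E14.5, 102 to 246 against 357 for E14.5 over E13.5 in GFP cells, and 661 to 1357 against 1497 for late over E14.5. The cause was not tested.

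Replicate numbers are shared between the sorts. Correlations between the deviations of arrays with the same number were -0.02, 0.00 and -0.01 at E13.5 and -0.06, 0.12 and 0.10 late. Arrays with different numbers gave -0.06 to 0.07 at E13.5 and -0.18 to 0.10 late. At E14.5 the same numbers gave -0.03 and -0.08, but the 2 GFP arrays there mirror each other, so these values cannot test pairing. No pairing was assumed. With a replicate block the gap change was called for 1 receptor instead of 2, Egfr passing to an adjusted p of 0.0502.

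The sign changed for these values. Between the sorts, Fgfrl1 at E13.5 was 0.028 with a median shift, Fgfr4 at E14.5 was 0.017 with quantile normalization and 0.012 with a median shift, and Fgfr4 late was -0.059 without the E18.5 arrays. In GFP cells late over E14.5, Fgfr1 was 0.036 with quantile normalization, and Fgfr4 was -0.036 with quantile normalization, -0.037 with a median shift and -0.017 without the E18.5 arrays. In GFP cells late over E13.5, a median shift gave -0.0090 for Fgfr1 and -0.010 for Erbb2. In all live cells late over E13.5, Erbb3 was -0.012 with quantile normalization and -0.013 with a median shift. With single arrays left out, the ranges were -0.10 to 0.044 (Fgfrl1) and -0.080 to 0.16 (Erbb3) between sorts at E13.5, -0.10 to 0.030 (Fgfr4) and -0.034 to 0.21 (Fgfrl1) at E14.5, and -0.031 to 0.046 (Fgfr4) late. They were -0.062 to 0.032 (Fgfrl1) in GFP cells E14.5 over E13.5, -0.12 to 0.012 (Fgfr1) and -0.017 to 0.033 (Fgfr4) late over E14.5, and -0.067 to 0.18 (Erbb2) late over E13.5. In all live cells they were -0.015 to 0.13 (Fgfrl1) and -0.055 to 0.10 (Erbb3), and for the gap change -0.055 to 0.0027 (Erbb4).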

Other observations

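The array titled as mislabeled belongs to no group. On it, Fgfr1 read 8.95, Fgfr2 7.93, Fgfr3 7.70, Fgfr4 7.62 and Fgfrl1 8.22 log2. Egfr read 7.73, Erbb2 8.08, Erbb3 7.60 and Erbb4 10.50 log2.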
